A study of Mus musculus with 7 samples.

Results

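The matrix metalloproteinases (MMP), the ADAM and ADAMTS metalloproteinases and the tissue inhibitors of metalloproteinases (TIMP) were followed in RNA-Seq of mouse white adipocytes with and without the short-chain fatty acid receptor FFA2. A gene was a member if its symbol was Mmp, Adam or Adamts followed by a number and at most 1 letter, or was one of Timp1 to Timp4. This rule gave 80 of the 57010 gene identifiers counted, namely 23 MMP, 34 ADAM, 19 ADAMTS and 4 TIMP genes. The libraries came from mature adipocytes that collagenase had released from the perigonadal (epididymal) fat pads of male mice on standard laboratory chow, labelled as 20 weeks old. The 3 FFA2 fl/fl libraries came from floxed littermate controls, and the 4 Adipoq-F2-KO libraries from mice that carried the same floxed alleles together with Adiponectin-Cre. Because Cre was driven by the adiponectin promoter, the deletion was aimed at adipocytes, while other cells caught in the preparation kept the receptor gene. The controls carried no Cre, so an effect of the transgene itself cannot be told apart from an effect of the deletion.

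MMPs are secreted or membrane-bound zinc proteases that cut collagens, basement membrane proteins and cytokines, and most are made as inactive precursors. ADAMs are membrane-bound and release the outer parts of cytokines, growth factors and receptors, whereas ADAMTS proteases are secreted and cleave proteoglycans such as versican and aggrecan, or trim procollagen. TIMPs are small secreted proteins that block the active site of MMPs and of some ADAM and ADAMTS proteases. In fat tissue the balance between proteases and inhibitors is known for its role in the remodelling of the matrix around growing adipocytes.

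Ffar2, which encodes FFA2, had 1404, 1346 and 1094 counts in FFA2 fl/fl libraries 1 to 3, against 67, 38, 48 and 76 counts in Adipoq-F2-KO libraries 1 to 4 (log2 fold change -4.36, SE 0.22, edgeR adjusted p = 8.0e-06). Total counts were between 30478997 and 39992605 per library. At this depth 0 counts allow up to 0.150 to 0.197 CPM (counts scaled to library size), a limit that covers counting error alone. The 12 adipocyte marker genes summed to between 44290 and 65310 CPM in every library, and 12 of 12 had a negative log2 fold change in Adipoq-F2-KO (median -0.30). By edgeR 0 of them were called (1.02% of all genes tested). At an unadjusted p under 0.05 there were 6 lower (7.37% of all genes tested). DESeq2 called 3 lower (1.53% of all genes to which it gave an adjusted p). Transcripts of other cell types were present too. Macrophage markers summed to 793 to 906 CPM in the controls and 994 to 1177 CPM in Adipoq-F2-KO, and endothelial markers to 1271 to 1654 and 1743 to 2816 CPM. Fibroblast progenitor markers summed to 2194 to 2563 CPM in the controls and 2653 to 2774 CPM in Adipoq-F2-KO. Mitochondrial genes took 4.41%, 5.77% and 4.98% of the counts in the controls and 7.82%, 6.61%, 9.24% and 10.3% in Adipoq-F2-KO, so that every knockout library was above every control. Adipoq-F2-KO library 4 had the lowest adipocyte and the highest endothelial and mural sums. Adipoq-F2-KO library 2 stood apart by sperm cell transcripts (Prm2, a protamine, had 1782 counts there and at most 192 elsewhere), and library 3 by transcripts of the epididymal duct (Lcn8, 327 counts there and at most 12 elsewhere). In such bulk RNA, fewer cells of a type and less RNA per cell cannot be told apart, and the part of these markers in the results was not tested. Leaving mitochondrial genes and ENSMUSG00000119584, an identifier with no symbol that took 0.619% to 6.76% of the counts, out of the library totals left the number of calls given next at 3.

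Of the 80 genes, 47 passed the filter on low counts and were tested, 33 did not, and 10 of those had 0 counts in all 7 libraries. A gene was called at an adjusted p under 0.05 in edgeR, with adjustment over all 17039 genes tested. Adamts4 and Adamts9 rose and Timp4 fell, so 3 of 47 were called (6.38%), against 1.02% of all genes tested. Taken by direction, 2 were called higher beside a background of 0.798%, and 1 lower beside 0.217%. Without Adipoq-F2-KO library 2, edgeR called 0 of these genes, with 21 at an unadjusted p under 0.05. Without library 3 it called 1 (Adamts5) and without library 4 it called 4 (Adamts4, Adamts9, Mmp14 and Timp4). Over all genes, edgeR called 11 without library 2, 20 without library 3 and 166 without library 4. DESeq2 called 11 of the 80 genes (background 6.21%), 9 of them higher (background 4.67%) and 2 lower (background 1.53%). These backgrounds are over the 14342 genes to which DESeq2 gave an adjusted p, and not all of the 80 had one. At an unadjusted p under 0.05 in edgeR there were 23 of 47 (background 17.9%), 20 higher (background 10.5%) and 3 lower (background 7.37%). Without a call, the log2 fold changes still leaned upward among the 47: 34 were positive and 13 negative with a median of 0.49, while the median over all genes tested was near 0 and 50.4% were positive. The 4 Adipoq-F2-KO libraries all lay above the 3 control libraries for 14 of the 47 genes (29.8%, background 8.86%) and all below them for 3 (6.38%, background 8.72%), where 17.6% of all genes tested were separate in either direction. Of the 47, 11 reached the filter's level in fewer than 3 of the control libraries, so that they could enter the test through the knockout libraries. Of these, 2 (Adam3 and Adamts8) reached it in 0 control libraries, and both are in the counts above.

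**Figure D1:**
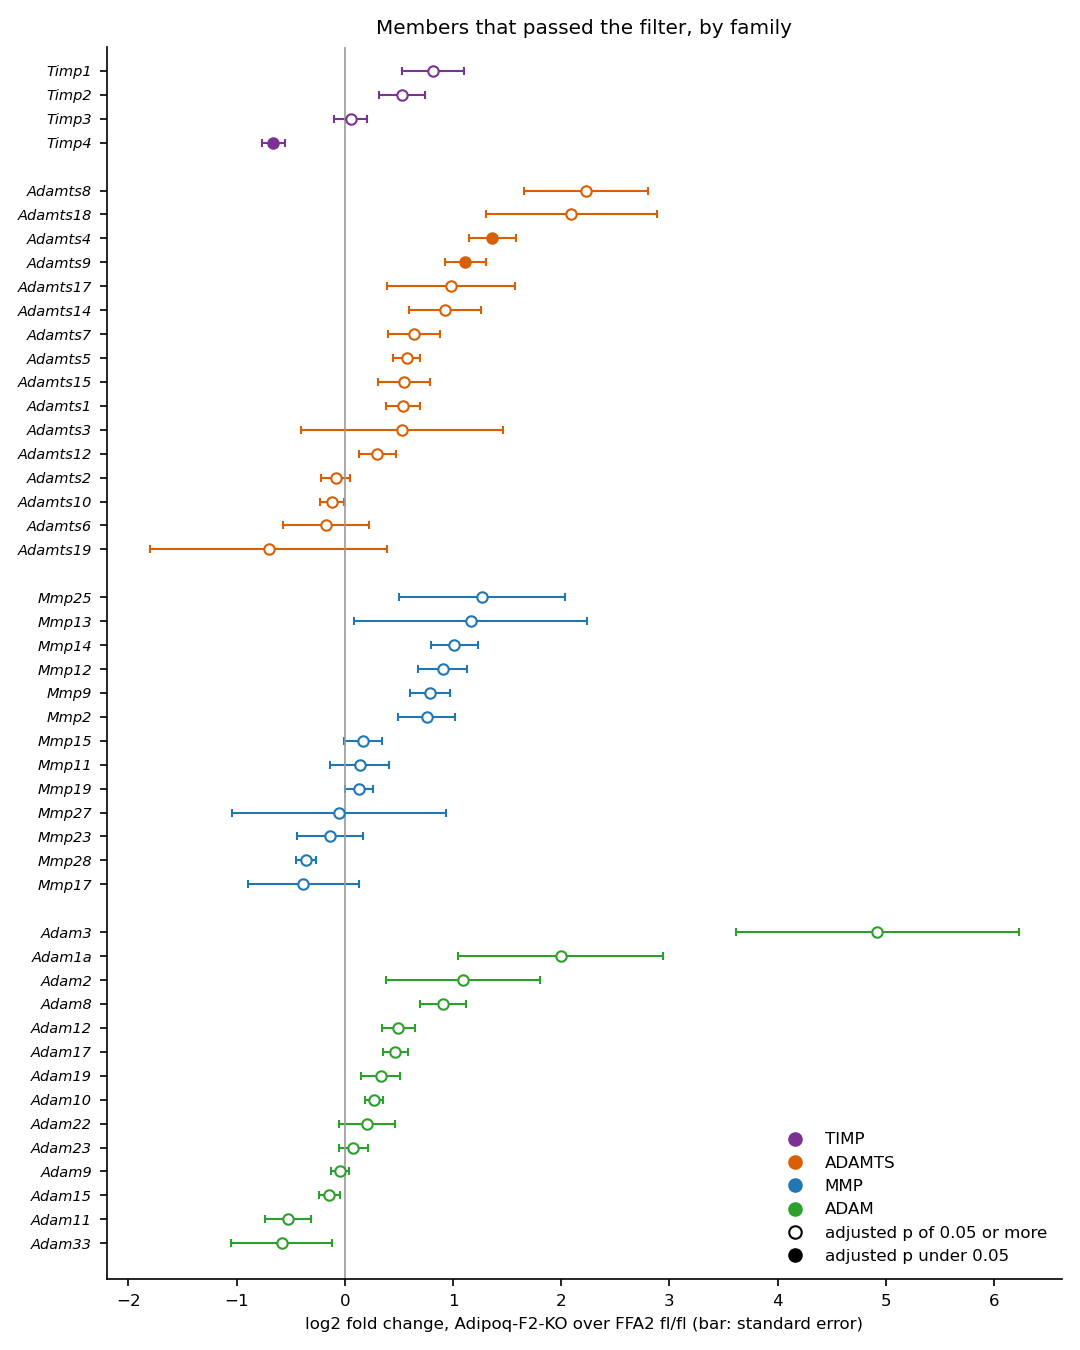
Log2 fold change (Adipoq-F2-KO over FFA2 fl/fl, x axis) of the 47 MMP, ADAM, ADAMTS and TIMP genes that passed the filter, 1 row a gene; bars are standard errors and filled points are genes called by edgeR. Adamts4 at 1.36, Adamts9 at 1.12 and Timp4 at -0.66 are the 3 called genes, and the genes farthest to the right, among them Adam3 and Adamts8, have wide bars and low counts.

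Transcript levels per kilobase of exon were very uneven within each class. Adamts1 stood first with 181 CPM per kilobase in the controls and 262 in Adipoq-F2-KO. It was followed among the controls by Timp4 at 69.5 and Timp3 at 48.4 CPM per kilobase, and then by the membrane ADAMs Adam15 at 43.2 and Adam9 at 40.9. Adamts1 alone made up 41.4% to 44.9% of the summed per-kilobase level of all proteases in the control libraries and 43.5% to 53.0% in Adipoq-F2-KO. Among MMPs the highest control levels were those of Mmp28 at 21.4 and Mmp19 at 21.1 CPM per kilobase, and these neighbours differed by less than the spread of Mmp19 between libraries. The gelatinases Mmp2 and Mmp9 were at 2.90 and 1.72 CPM per kilobase in the controls.

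Among the inhibitors, Timp4 fell while the other three were not called. Timp4 (ENSMUSG00000030317, chromosome 6, 115218853 to 115229166 in the coordinates of the deposited table) is the TIMP best known from fat and heart muscle. It had 455, 379 and 395 normalized CPM in control libraries 1 to 3 and 288, 267, 258 and 222 in Adipoq-F2-KO libraries 1 to 4. Every Adipoq-F2-KO library was below every control library. The means were 409 ± 40.4 (SD, n = 3) and 259 ± 27.6 (SD, n = 4), a log2 fold change of -0.66 (SE 0.11, edgeR adjusted p = 0.0332), and the exact two-sided permutation test over libraries gave p = 0.0286, the smallest that 3 against 4 allows. The direction held when any 1 library was left out (-0.72 to -0.58), but the edgeR call was lost when any of the 3 control libraries, or Adipoq-F2-KO library 2 or 3, was taken out. The Timp4 gene lies inside the larger gene Syn2 on the opposite strand and shares 90 exon bases with it. Syn2, a synapsin, was measured at 11.2 and 7.60 CPM in the 2 groups (log2 fold change -0.56, edgeR adjusted p = 0.123), and reads in the shared bases cannot be told apart.

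Timp3, which binds to the matrix and also blocks ADAM17, had 393, 407 and 383 CPM in the controls. In Adipoq-F2-KO it had 367, 361, 351 and 559.8 CPM. Libraries 1 to 3 of the knockout were thus below all controls and library 4 far above them, and the log2 fold change was 0.06 (SE 0.15, edgeR adjusted p = 0.888) with library 4 and -0.13 (edgeR adjusted p = 0.460) without it. Timp2, which besides inhibition takes part with MMP14 in activating pro-MMP2, had 66.8, 68.1 and 93.7 CPM against 99.3, 105, 77.4 and 159 CPM. Its groups overlapped (log2 fold change 0.53, SE 0.21, edgeR adjusted p = 0.225), and library 4 was again highest. Timp1, an inducible TIMP, was the least abundant, with 3.74, 2.47 and 1.93 CPM against 3.36, 4.71, 5.86 and 5.22 CPM. The highest control value exceeded the lowest knockout value, and Timp1 was not called (log2 fold change 0.82, SE 0.29, edgeR adjusted p = 0.178).

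**Figure D2:**
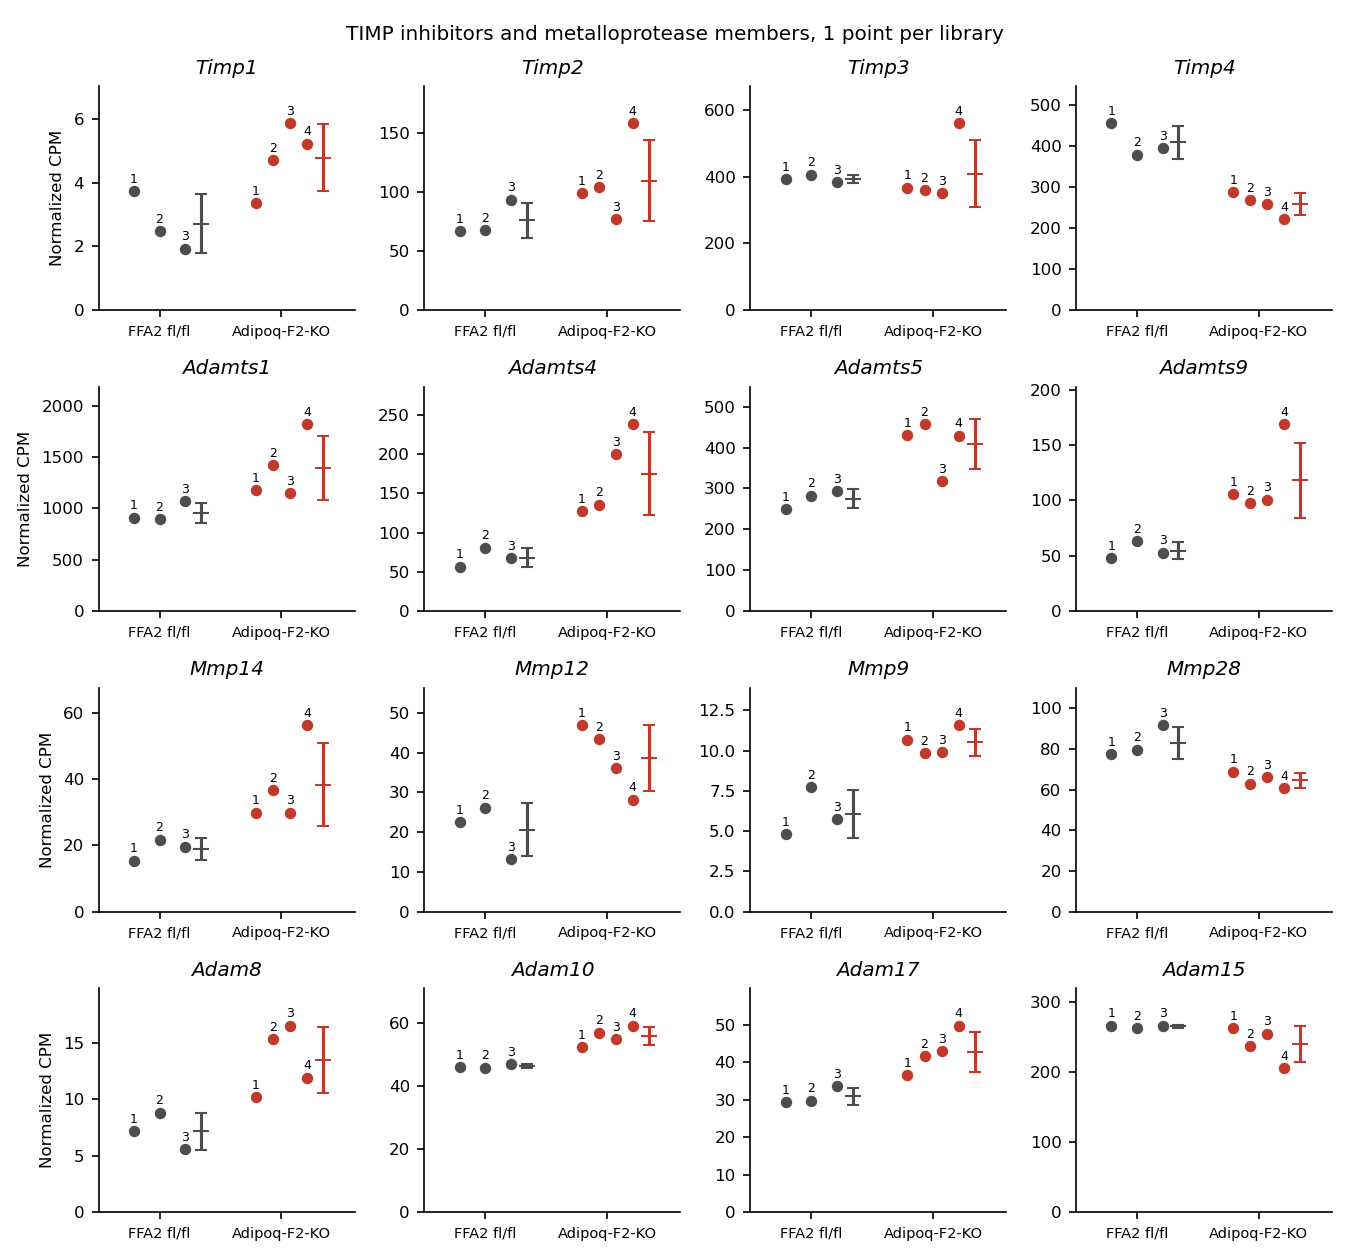
Normalized CPM (y axes, from 0) in each library for 16 of the genes, with points numbered by library and bars for the mean and SD of each genotype (3 control and 4 knockout libraries). Timp4 falls from 409 to 259 and Adamts4 rises from 68.1 to 176 on average, with no overlap between genotypes, while Timp3 is set apart by Adipoq-F2-KO library 4 alone at 559.8 CPM.

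The ADAMTS genes that cleave proteoglycans held both protease calls. Of the 7 genes in this group, 6 passed the filter. Adamts8 passed through the knockout libraries alone, with 0 control libraries at the filter's level, and is left out of the counts that follow. The log2 fold changes of the other 5 ran from 0.54 to 1.36. All 5 were positive at an unadjusted p under 0.05 (background 10.5% in this direction), and 2 were called higher (background 0.798%). In 4 of them the genotypes did not overlap (background 8.86%), and Adamts15 overlapped. DESeq2 called the same 4 higher (background 4.67%), Adamts1, Adamts4, Adamts5 and Adamts9.

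Adamts4 (ENSMUSG00000006403, chromosome 1, 171077990 to 171088206), also known as aggrecanase-1, had 56.3, 81.0 and 67.0 CPM in the control libraries and 127, 136, 200.2 and 239 CPM in Adipoq-F2-KO. The lowest knockout value was well above the highest control value. On average it was 68.1 ± 12.4 (SD, n = 3) and 176 ± 53.2 CPM (SD, n = 4), a fold of 2.58 (log2 fold change 1.36, SE 0.22, edgeR adjusted p = 0.0332). The exact two-sided permutation p was 0.0571, and the log2 fold change stayed between 1.18 and 1.51 when 1 library was left out. The edgeR call was lost without FFA2 fl/fl library 1 or 3 or Adipoq-F2-KO library 2 or 3.

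Adamts9 (ENSMUSG00000030022, chromosome 6, 92749680 to 92920473) cleaves versican and aggrecan. It had 48.0, 62.9 and 52.5 CPM in the controls and 105, 97.4, 101 and 169 CPM in Adipoq-F2-KO. All knockout libraries were above all controls, and library 4 stood well above the other three. Its fold was 2.17 (log2 fold change 1.12, SE 0.19, edgeR adjusted p = 0.0332, exact permutation p = 0.0286). Without library 4 the log2 fold change was 0.89 and the call held (edgeR adjusted p = 0.00959). The call was kept in 2 of the 7 fits that left out 1 library, with log2 fold changes of 0.89 to 1.23. The gene shares 1805 exon bases with A730049H05Rik and Gm15737 on the opposite strand, whose means were 0.632 and 0.313 CPM in the controls and 1.78 and 0.925 CPM in the knockout.

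The 2 most abundant genes of the group, Adamts1 and Adamts5, are neighbours within 108.0 kilobases of chromosome 16 (85590715 to 85698716). Adamts5, or aggrecanase-2, had 248, 282 and 294 CPM in the controls and 430.2, 457, 318 and 429 CPM in Adipoq-F2-KO. No value overlapped, yet edgeR did not call it (log2 fold change 0.57, SE 0.13, edgeR adjusted p = 0.0577, DESeq2 adjusted p = 5.5e-04). Adamts1, a versicanase that is also known to restrain blood vessel growth, had 909.8, 896 and 1071 CPM against 1174, 1422, 1148 and 1821 CPM. These values did not overlap either, and the log2 fold change was 0.54 (SE 0.16, edgeR adjusted p = 0.117, DESeq2 adjusted p = 0.00865), or 0.38 without Adipoq-F2-KO library 4.

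Adamts8, at the low end, had 0.267, 0.202 and 0.176 CPM in the controls and 1.00, 0.851, 1.22 and 1.02 CPM in Adipoq-F2-KO. The groups were clearly separate, but the control values were close to the counting limit and no call was made (log2 fold change 2.23, SE 0.57, edgeR adjusted p = 0.0857, exact permutation p = 0.0286). Adamts15 lies beside Adamts8 on chromosome 9. Its CPM were 10.3, 5.80 and 11.3 against 13.5, 15.04, 9.46 and 15.4, which overlap (log2 fold change 0.55, edgeR adjusted p = 0.259). Adamts20 did not pass the filter.

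The ADAMTS genes outside this group, of which 3 procollagen and 7 other genes were tested, gave no call in edgeR. At an unadjusted p under 0.05 there were 3 (background 17.9%), and DESeq2 called 0 (background 6.21%). Of the procollagen N-proteinases, which trim new fibrillar collagen, Adamts2 was by far the most abundant with 160.3, 160.2 and 165 CPM in the controls and 180.3, 141, 171 and 118 CPM in the knockout. Its values were on both sides of the controls (log2 fold change -0.08, SE 0.13, edgeR adjusted p = 0.785). Adamts14, of the same function, had 1.495, 2.22 and 1.55 CPM against 2.96, 4.74, 2.10 and 3.56 CPM, with overlap (log2 fold change 0.92, edgeR adjusted p = 0.184). Among the rest, Adamts7 had 5.18, 7.86 and 5.62 CPM against 9.48, 9.23, 6.69 and 13.4 CPM (log2 fold change 0.64, edgeR adjusted p = 0.197). Adamts18 had 0.0534, 0.151 and 0.352 CPM against 1.00, 0.365, 0.664 and 1.15 CPM (log2 fold change 2.09, SE 0.79, edgeR adjusted p = 0.199). Both had higher means in Adipoq-F2-KO, but the Adamts7 groups overlapped and the lowest Adamts18 values rest on few counts. Adamts18 reached the filter's level in 1 control library and in 4 knockout libraries.

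No MMP was called by edgeR, with 5 of the 13 tested at an unadjusted p under 0.05 (background 17.9%), and DESeq2 called 3 higher (background 4.67%) and 1 lower (background 1.53%). Nearest to the threshold was Mmp14, the membrane-type MMP that cuts fibrillar collagen at the cell surface and activates pro-MMP2. It had 15.4, 21.7 and 19.6 CPM in the controls and 29.9, 36.8, 29.9 and 56.4 CPM in Adipoq-F2-KO. All knockout libraries were above the controls (fold 2.02, log2 fold change 1.01, SE 0.22, edgeR adjusted p = 0.0554, DESeq2 adjusted p = 2.8e-04). Without library 4 its log2 fold change was 0.77 and it passed the threshold (edgeR adjusted p = 0.0409). Mmp15, another membrane-type MMP, had 30.7, 29.6 and 22.6 CPM against 40.1, 22.8, 30.9 and 30.3 CPM, with no separation (log2 fold change 0.17, edgeR adjusted p = 0.668).

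Mmp12, the metalloelastase typical of macrophages, had 22.5, 26.2 and 13.2 CPM in the controls and 47.0, 43.4, 36.1 and 28.2 CPM in the knockout. Mmp9, the gelatinase of myeloid cells, had 4.81, 7.71 and 5.74 CPM against 10.7, 9.84, 9.90 and 11.6 CPM. Neither gene overlapped between genotypes and neither was called by edgeR. The log2 fold change of Mmp12 was 0.91 (SE 0.23, edgeR adjusted p = 0.0809, DESeq2 adjusted p = 0.00211). That of Mmp9 was 0.79 (SE 0.18, edgeR adjusted p = 0.0647, exact permutation p = 0.0286, DESeq2 adjusted p = 0.00929). Beside them, 15 of the 17 macrophage markers tested had positive log2 fold changes (median 0.61), and 2 of these were called, Cd68 (0.72, edgeR adjusted p = 0.0416) and Lyz2 (0.69, edgeR adjusted p = 0.0383). These calls were kept in 1 and 3 of the 7 fits that left out a library. Of the macrophage markers, 11 had positive log2 fold changes at an unadjusted p under 0.05 (background 10.5%), and DESeq2 called 9 higher (background 4.67%). The background of edgeR calls in this direction was 0.798%. Of 11 neutrophil markers 3 passed the filter, and the defining marker Ly6g was at 0 counts in every library.

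Mmp2, the gelatinase of stromal cells, had 7.85, 9.85 and 11.6 CPM against 13.4, 17.3, 10.4 and 25.2 CPM. The groups overlapped, and the log2 fold change of 0.76 (SE 0.26, edgeR adjusted p = 0.175) became 0.48 without Adipoq-F2-KO library 4. Both abundant secreted MMPs behaved differently from these. Mmp28, or epilysin, had 77.5, 79.7 and 91.9 CPM in the controls and 68.9, 62.9, 66.2 and 60.6 CPM in the knockout. Here each knockout library lay below each control, without an edgeR call (log2 fold change -0.36, SE 0.09, edgeR adjusted p = 0.0895, DESeq2 adjusted p = 0.0230). Mmp19 had 71.4, 63.5 and 88.6 CPM against 73.5, 85.0, 75.8 and 92.3 CPM, and its groups overlapped (log2 fold change 0.13, edgeR adjusted p = 0.624).

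Mmp12 belongs to a row of 10 Mmp genes that lie within 427.1 kilobases of chromosome 9 (7272514 to 7699586). Only 3 of them passed the filter, Mmp12, Mmp13 and Mmp27, and 4 (Mmp10, Mmp1a, Mmp1b and Mmp20) had 0 counts in all libraries. The interstitial collagenase Mmp13 had between 0 and 24 counts per library, with a log2 fold change of 1.16 (SE 1.07, edgeR adjusted p = 0.611). Mmp12 was the one gene of the row with a group mean above 1 CPM. RefSeq (build GRCm38.p6) held 250-base windows upstream of the transcription start for all 10, and for 50 of the 80 genes in all (55 windows). The AP-1 motif TGANTCA, searched on both strands, was present in windows of 8 of these 10 genes and of 4 of the other 40. Over all RefSeq windows of this length it was found in 6.75%. A TATA box (TATAAA) was found together with it in 7 of the 10. A match says only that the letters are present. No window was held for Adamts4, which was called above, or for Adamts5. The windows of Mmp12 and Mmp13 are shown for this shared feature, with those of Adamts1, Adamts9 and Timp4, genes without the AP-1 letters in their window and, for the latter pair, called above. Each runs 5′ to 3′ on the gene's strand and ends at the base before the start, and capitals mark motif matches.
Mmp12 promoter (chr9:7347124-7347373, plus strand, the second of its 2 windows): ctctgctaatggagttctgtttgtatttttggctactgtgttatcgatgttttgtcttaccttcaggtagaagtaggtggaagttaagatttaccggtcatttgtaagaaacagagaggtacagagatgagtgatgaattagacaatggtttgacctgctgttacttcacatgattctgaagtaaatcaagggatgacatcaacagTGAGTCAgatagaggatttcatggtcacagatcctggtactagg
Mmp13 promoter (chr9:7272264-7272513, plus strand): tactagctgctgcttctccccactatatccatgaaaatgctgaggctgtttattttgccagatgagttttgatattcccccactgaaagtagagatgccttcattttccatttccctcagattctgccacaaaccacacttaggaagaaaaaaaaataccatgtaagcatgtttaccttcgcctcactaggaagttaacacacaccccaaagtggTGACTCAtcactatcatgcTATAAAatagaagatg
Adamts1 promoter (chr16:85803114-85803363, minus strand): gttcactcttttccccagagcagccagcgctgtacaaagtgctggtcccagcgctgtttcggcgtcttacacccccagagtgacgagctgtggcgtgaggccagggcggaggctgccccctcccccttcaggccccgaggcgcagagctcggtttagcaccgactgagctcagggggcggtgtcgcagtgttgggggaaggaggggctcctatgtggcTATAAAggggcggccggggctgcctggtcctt
Adamts9 promoter (chr6:92943535-92943784, minus strand): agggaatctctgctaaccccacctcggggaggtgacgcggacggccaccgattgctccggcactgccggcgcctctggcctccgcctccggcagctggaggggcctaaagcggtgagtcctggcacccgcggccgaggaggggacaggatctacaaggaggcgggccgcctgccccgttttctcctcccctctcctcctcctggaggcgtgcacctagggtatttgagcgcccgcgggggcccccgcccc
Timp4 promoter (chr6:115252206-115252455, minus strand): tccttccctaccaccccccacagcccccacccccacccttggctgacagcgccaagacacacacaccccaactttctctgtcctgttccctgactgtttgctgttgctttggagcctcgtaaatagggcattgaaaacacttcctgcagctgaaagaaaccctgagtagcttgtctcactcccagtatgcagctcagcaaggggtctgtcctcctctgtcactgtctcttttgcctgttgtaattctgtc
In the Mmp12 window shown, the AP-1 letters TGAGTCA begin 44 bases before the start, while its first window (chr9:7344147-7344396) held none of the letters searched. In that of Mmp13, TGACTCA begins 35 bases before the start, followed by TATAAA at 16 bases. Adamts1 has TATAAA at 32 bases before its start, in a window with 65.6% G and C. None of the letters searched (AP-1, the cyclic AMP response element TGACGTCA, TATAAA and CCAAT) occurred in the windows of Adamts9 and Timp4, which had 71.2% and 53.6% G and C against a median of 52.4% over all windows. The windows of Timp1 to Timp3 and of Mmp14 also had no AP-1 match.

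ADAM genes gave 0 calls in edgeR, with 6 of the 14 tested at an unadjusted p under 0.05 (background 17.9%), and DESeq2 called Adam8 and Adam17 higher (background 4.67%). Among the 6 is Adam3, which had 0 control libraries at the filter's level and passed through the knockout libraries alone. In the ADAMs of somatic tissues, 8 of 9 passed the filter, and 5 had positive and 3 negative log2 fold changes (median 0.30). The sheddase Adam17, which releases TNF from the cell surface, had 29.3, 29.8 and 33.6 CPM in the controls and 36.6, 41.6, 43.0 and 49.8 CPM in Adipoq-F2-KO. No library overlapped, and the log2 fold change was 0.47 (SE 0.12, edgeR adjusted p = 0.0824, DESeq2 adjusted p = 0.0155). Adam10, the other main sheddase and the one that cuts Notch receptors, had 46.1, 45.9 and 47.0 CPM against 52.5, 57.1, 55.0 and 59.3 CPM. The difference was small but without overlap (log2 fold change 0.27, SE 0.09, edgeR adjusted p = 0.143, exact permutation p = 0.0286).

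Adam8, an ADAM of leukocytes, had 7.16, 8.82 and 5.57 CPM in the controls against 10.2, 15.3, 16.5 and 11.9 CPM. Adam12, of mesenchymal and preadipocyte lineages, had 15.3, 15.4 and 14.1 CPM against 26.1, 16.3, 20.5 and 21.2 CPM. In both genes every knockout library was above every control. The log2 fold changes were 0.91 for Adam8 (SE 0.21, edgeR adjusted p = 0.0629, DESeq2 adjusted p = 0.00399) and 0.49 for Adam12 (SE 0.15, edgeR adjusted p = 0.134). The most abundant ADAMs showed no such separation. Adam15 had 267, 263 and 267 CPM in the controls and 263, 237, 255 and 206 CPM in the knockout (log2 fold change -0.14, edgeR adjusted p = 0.475). Adam9 had 169.8, 157 and 178 CPM against 161, 171, 163 and 158 CPM (log2 fold change -0.04, edgeR adjusted p = 0.830). For Adam9 the difference was smaller than the spread between control libraries. Adam11, Adam22 and Adam23 have no protease site and serve as adhesion proteins and receptors. Of these 3, Adam11 had 5.55, 4.94 and 5.39 CPM against 3.61, 3.83, 4.48 and 2.78 CPM. Its knockout values were all below the controls (log2 fold change -0.52, SE 0.22, edgeR adjusted p = 0.238).

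Of the 22 ADAM genes of the germ line and epididymis, many of which act in sperm maturation and binding to the egg, 3 passed the filter and 6 were at 0 counts throughout. Of the 3 tested, Adam2 had 13, 14 and 9 counts in the controls and 14, 34, 40 and 8 in the knockout, and Adam1a had 10, 22 and 0 against 40, 62, 13 and 36. Both were spread over the genotypes and neither was called (edgeR adjusted p = 0.452 and 0.300). Adam3, a sperm surface protein, had 0, 2 and 2 counts in the controls and 12, 124, 14 and 10 counts in the knockout (edgeR adjusted p = 0.0960). It passed the filter through the knockout libraries alone, and since the controls were at or under the counting limit of 6 counts, no fold is given. Adam5 had 118 counts and Adam32 had 56 counts in Adipoq-F2-KO library 2, against at most 8 and 12 in any other library. That is the library with 1782 counts of Prm2. Adam7, a gene of the epididymal duct, had 220 counts in Adipoq-F2-KO library 3, against 32 in FFA2 fl/fl library 2 and 6 in Adipoq-F2-KO library 4. Adam28, counted here with the somatic ADAMs, had 152 counts in Adipoq-F2-KO library 3 and 0 in the other 6. That is the library with 327 counts of Lcn8, an epididymal lipocalin. The highest count of any other untested gene was 25.

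**Figure D3:**
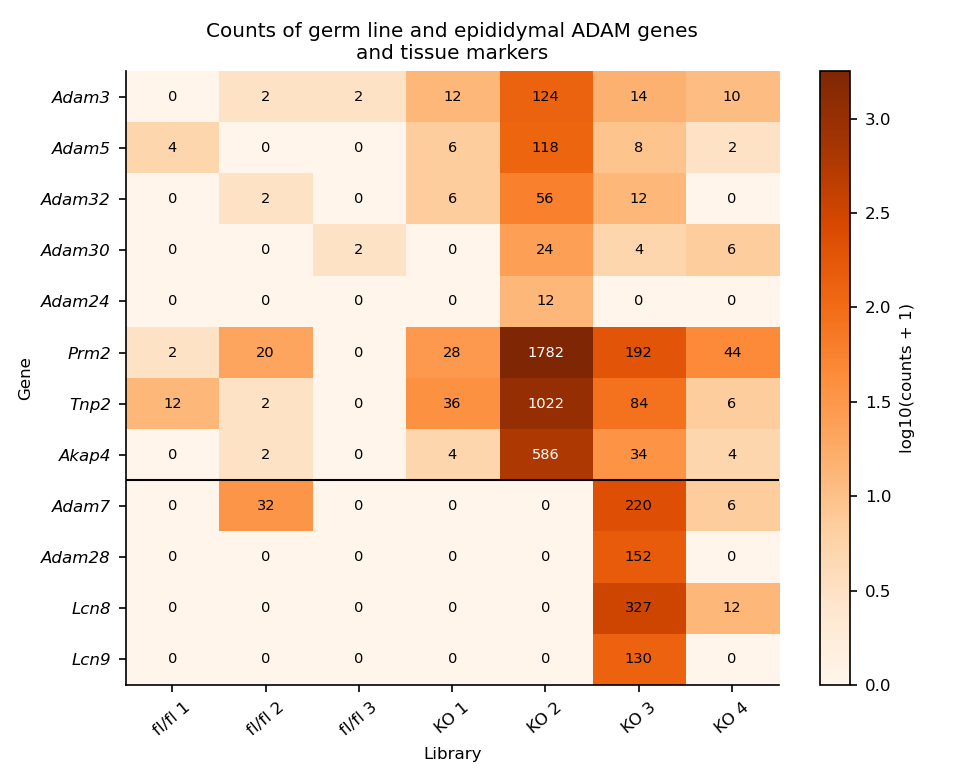
Counts per library (columns, by genotype and number) of ADAM genes and of sperm and epididymal marker genes (rows), with the count written in each cell. Adam3, Adam5 and Adam32 peak in Adipoq-F2-KO library 2 together with Prm2 (1782 counts), and Adam7 and Adam28 in library 3 together with Lcn8 (327 counts).

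To set proteases against inhibitors, levels per kilobase were summed by class in each library, which gives a transcript sum and not an activity. The protease sum held every MMP, ADAM and ADAMTS gene, among them Adam11, Adam22 and Adam23, which have no protease site. The TIMPs do not block every protease in the sum, so a ratio of the sums is not a measure of inhibition. The protease sum was 402, 408 and 449.5 CPM per kilobase in the control libraries and 502, 555, 498 and 649 in Adipoq-F2-KO. The TIMP sum was 145, 133 and 138 CPM per kilobase against 121, 119.6, 112 and 149.7. Proteases were therefore separate between genotypes and TIMPs were not, since Adipoq-F2-KO library 4 had the highest TIMP sum of all. The TIMP sum divided by the protease sum was 0.362, 0.326 and 0.308 in the controls and 0.241, 0.216, 0.225 and 0.231 in the knockout, without overlap. Leaving out Adamts1, the ratio was 0.632, 0.556 and 0.558 against 0.431, 0.418, 0.397 and 0.491, also without overlap. By class, the ADAMTS sum went from 253 ± 20.4 (SD, n = 3) to 375 ± 69.3 CPM per kilobase (SD, n = 4). The ADAM sum was 105 ± 2.44 and 107 ± 4.85, and the MMP sum 61.9 ± 4.01 and 69.1 ± 5.31 CPM per kilobase. Most of the difference in the protease sum thus lay in ADAMTS genes. Within the inhibitors, the share of Timp4 was 48.3% to 53.1% of the TIMP sum in the controls and 25.1% to 40.3% in Adipoq-F2-KO. These sums are descriptions and carry no test. Beside them, the endothelial, macrophage, fibroblast progenitor, mast cell and germ cell marker sums of each knockout library exceeded those of each control. The adipocyte marker sum of each knockout library was below that of each control. The part of these markers in the class sums was not tested.

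**Figure D4:**
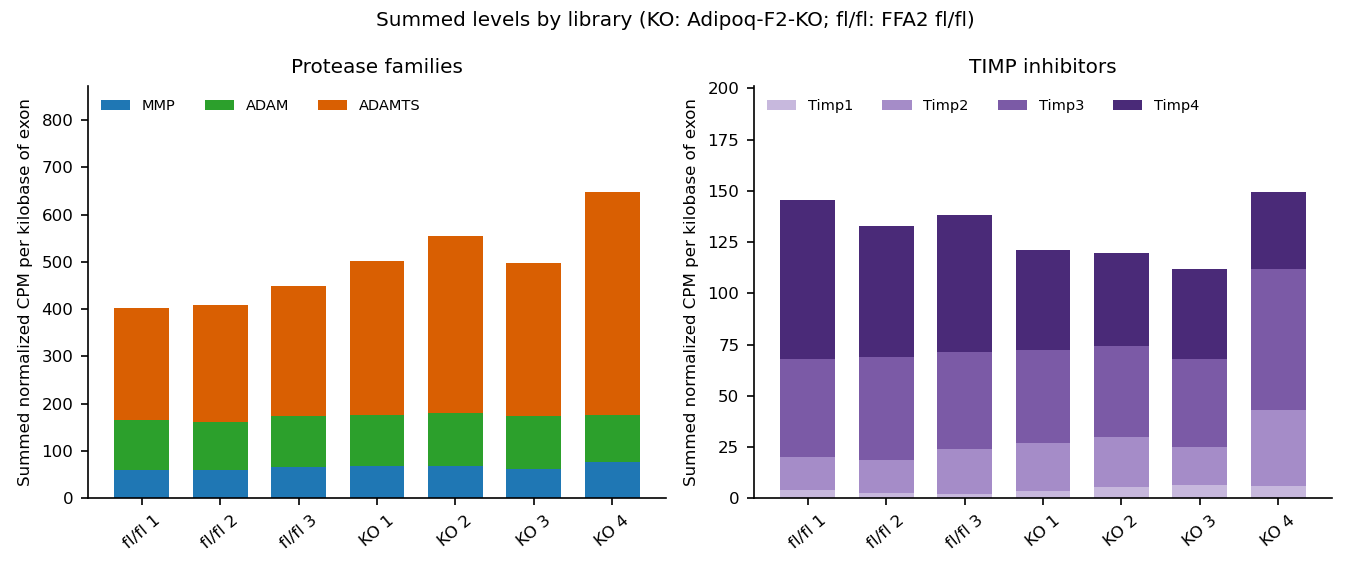
Summed level per kilobase of exon (normalized CPM per kilobase, y axis from 0) of MMP, ADAM, ADAMTS and TIMP genes in each of the 7 libraries, stacked by gene or class. The protease sum is 402 to 449.5 in FFA2 fl/fl and 498 to 649 in Adipoq-F2-KO, with ADAMTS genes as the largest class, while the TIMP sum is 133 to 145 and 112 to 149.7.

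Other genes of the same pathway were counted from the same fit. Of 8 tested activators and convertases of pro-MMPs, 4 were positive and 4 negative. At an unadjusted p under 0.05 there were 3 higher (background 10.5%) and 1 lower (background 7.37%), and DESeq2 called 3 higher (background 4.67%). By edgeR 1 was called, in the higher direction (background 0.798%). This was Plau, the urokinase that forms plasmin, with 26.0 CPM in the controls and 58.5 CPM in Adipoq-F2-KO (log2 fold change 1.17, SE 0.24, edgeR adjusted p = 0.04995). Its receptor Plaur (1.01, edgeR adjusted p = 0.0721) and Plat, the tissue plasminogen activator (1.01, edgeR adjusted p = 0.0655), were not called. For other inhibitors and clearance receptors, 4 of 9 were positive and 5 negative, and edgeR called 0 (background 1.02%). At an unadjusted p under 0.05 there was 1 higher (background 10.5%), and DESeq2 called 1 higher (background 4.67%). Of 10 other extracellular proteases, such as cathepsins, edgeR called 0 (background 1.02%). At an unadjusted p under 0.05 there were 3 higher (background 10.5%), and DESeq2 called 1 higher (background 4.67%). The most abundant of them, Ctsb, was at 1742 and 1729 CPM. The 5 ADAMTS-like proteins, which lack a protease domain, gave 0 calls in edgeR (background 1.02%) and in DESeq2 (background 6.21%). At an unadjusted p under 0.05 there was 1 lower (background 7.37%).

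The proteins that ADAM10 and ADAM17 release were also followed at the transcript level. Of 17 tested, 12 were positive and 5 negative (median 0.22), where 50.4% of all genes tested were positive. Of the 17, 3 were called, all higher (background 0.798%). At an unadjusted p under 0.05 there were 6 higher (background 10.5%) and 2 lower (background 7.37%). DESeq2 called 6 higher (background 4.67%) and 0 lower (background 1.53%). Csf1r and Mertk of this list are also among the macrophage markers. Tnf, the inflammatory cytokine shed by ADAM17, had 14.4 CPM in the controls and 45.0 CPM in Adipoq-F2-KO (log2 fold change 1.65, SE 0.22, edgeR adjusted p = 0.0192). Cd44, a hyaluronan receptor, had 15.5 and 31.4 CPM (log2 fold change 1.02, SE 0.17, edgeR adjusted p = 0.0332). Cxcl16, a membrane-bound chemokine, had 6.57 and 12.9 CPM (log2 fold change 0.97, SE 0.20, edgeR adjusted p = 0.0475). Of the 8 tested genes whose products help ADAM10 and ADAM17 mature, 0 were called by edgeR (background 1.02%). At an unadjusted p under 0.05 there was 1 higher (background 10.5%), and DESeq2 called 1 higher (background 4.67%). Rhbdf2, the iRhom that carries ADAM17 to the surface in immune cells, had 30.4 and 48.0 CPM (log2 fold change 0.66, edgeR adjusted p = 0.0556).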

How the data were processed

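Poly(A) RNA-Seq libraries of perigonadal adipocytes from 3 control (FFA2 fl/fl) and 4 Adipoq-F2-KO animals were analysed. The authors used Trimmomatic for trimming, STAR for alignment and featureCounts for counting, and the deposited values are raw counts per gene. Tool versions and the strand and overlap options are not given in the sources used here. The processing notes list GRCm38 and mm10, but the deposited gene coordinates differ from GRCm38, so they are printed only as deposited. RefSeq promoter windows are on GRCm38.p6. Most counts below 50 were even (85.5% to 88.8%), as when both mates of a pair are counted, so the limit for 0 was set at 6 counts. Symbols were matched to 52029 of 57010 identifiers.

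Counts were filtered with filterByExpr, scaled with TMM and entered into edgeR's quasi-likelihood test (version 4.0.16, R 4.3.3), two-sided, on genotype alone, with Benjamini-Hochberg adjustment over 17039 genes. DESeq2 1.42.0 and limma 3.58.1 voom were alternatives. Single genes were also given an exact permutation test over libraries (35 arrangements, difference of mean normalized CPM), adjusted over no family. Levels per kilobase are normalized CPM divided by deposited exon length. The scripts were tested on simulated data. Libraries of a genotype differed by more than sampling noise and were kept as separate samples. TMM factors lay between 0.968 and 1.02. Of the 29 genes with values in every library, 15 share exon bases with another gene, so reads there cannot be assigned with certainty.

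The genes, classes, gene lists, tests and alternatives were chosen with earlier results of these data known. Values in every library are given for the TIMPs, for genes at an unadjusted p under 0.05, for the 5 most abundant genes per kilobase of each protease class, and for Mmp2, Mmp9, Mmp12, Mmp14, Adam10, Adam17, Adamts4 and Adamts5.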

Additional observations from a re-analysis of the deposited data

Results flagged for a closer look

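In the group of 4 Adipoq-F2-KO libraries, 4 of the 47 tested genes had 1 library far from the other three by Dixon's criterion, where chance alone gives about 1 in 20, or 2.35 of 47. Timp3 was at 559.8 normalized CPM in library 4, against 351 to 367 in the other three. Adamts9 was at 169 normalized CPM in library 4, against 97.4 to 105. Adam3 was at 3.77 normalized CPM in library 2, against at most 0.387. Mmp23 was at 2.38 normalized CPM in library 3, below the other knockout libraries, and was not called (log2 fold change -0.13, edgeR adjusted p = 0.860). Library 4 also had the highest endothelial and mural marker sums, library 2 the most sperm cell transcripts and library 3 the most epididymal ones, and their part in these values was not tested.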

How the results depend on the processing

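The count of called genes depended strongly on the tool and on single libraries. Over all genes, edgeR called 173, DESeq2 890, and edgeR 1403 when every gene with at least 1 count entered. Among the MMP, ADAM, ADAMTS and TIMP genes the counts were 3 (2 higher, 1 lower), 11 (9 higher, 2 lower) and 18 (16 higher, 2 lower). Leaving out 1 library gave 1 to 178 calls over all genes and 0 to 5 among these genes (0 to 4 higher, 0 to 1 lower). Over all genes the lowest were 1 call without FFA2 fl/fl library 1, 5 without library 3, and 11 and 20 without Adipoq-F2-KO libraries 2 and 3, and 41 were left without FFA2 fl/fl library 2. Of these genes, 0 were called without FFA2 fl/fl library 1 or 3 or Adipoq-F2-KO library 2, where 19, 21 and 21 had an unadjusted p under 0.05. With Adipoq-F2-KO libraries 1 and 4 only, a setting chosen after seeing the data, edgeR called 4 genes in all and 0 of these genes, with 21 at an unadjusted p under 0.05 and log2 fold changes of 1.42 for Adamts4, 1.32 for Adamts9 and -0.69 for Timp4. Other size factors, voom and library totals without mitochondrial genes and ENSMUSG00000119584 gave 3 to 4 calls among these genes. Over all genes they gave 171, 208 and 166.

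The median log2 fold change of proteases (all MMP, ADAM and ADAMTS genes with a value) was 0.49. It was 0.61 in DESeq2, which also gave values to genes under the filter, and 0.39 to 0.61 with 1 library left out. The median of the inhibitors, 0.29, was 0.0834 to 0.39 with 1 library left out. The labels give both genotypes replicate numbers 1 to 3, but same-numbered libraries did not deviate together (correlations 0.03, -0.02 and -0.02). Nor did every library correlate best with its own number. With so few libraries, centred within each genotype, this check cannot show whether same-numbered libraries share more than a number. A fit with the replicate block was also run, in which Adipoq-F2-KO library 4 has no partner and does not inform the genotype term. It called 224 genes over all, against 173 without the block. Among the MMP, ADAM, ADAMTS and TIMP genes it called 5 (4 higher, 1 lower), against 3, with Mmp12 and Mmp14 in addition. The inhibitor median was 0.087 in this fit. Under this block Timp3 was at -0.13 and Adamts2 at 0.0127, the reverse of their signs without it. With 1 library left out, the log2 fold changes ran from -0.13 to 0.12 for Timp3, from -0.17 to 0.0208 for Adamts2 and from -0.0922 to 0.0125 for Adam9, and none of these was called. The cause of these changes was not tested. Depth limits genes below about 0.2 CPM, such as Adamts8 in the controls.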
